A study of Mus musculus with 15 samples.

Results

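The genes described here are 8 genes of cholesterol synthesis: Hmgcs1, Idi1, Fdps, Sqle, Cyp51, Hsd17b7, Dhcr7 and the pathway's regulator Insig1. They were chosen by name after measured values of the hybrid against both parental strains in these arrays were known. The strain differences of the 8 genes are therefore given as descriptions, and nothing is read from the number that passed a test. All probe sets (groups of short oligonucleotides that report 1 transcript) annotated with one of the 8 symbols and no other were taken, which gave 19 of the 45096 probe sets and 8 of the 18190 genes on the array. The label joins Hsd17b7 to the other genes, and the values separate them: Hsd17b7 differed strongly between the parental strains, while the brightest probe sets of the other 7 did not. The other Hmgcs1 probe sets, apart from a set too dim to use, were lower in C3H, at log2 differences of -0.95, -0.52 and -0.50.

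RNA came from the heart apex of male mice, with 5 C57Bl/6 (C57BL/6J), 5 C3H (C3H/HeJ) and 5 B6C3F1 mice, each on its own Affymetrix array. C57Bl/6 and C3H are inbred, so all mice of such a strain are genetically alike, and each B6C3F1 mouse is an F1 hybrid with 1 set of chromosomes from each strain. All mice, controls of the same study, carried a radiotelemetry transmitter placed in the abdomen under tribromoethanol anaesthesia at 7 weeks of age, received nothing else, and were 9 to 10 weeks old when killed with CO2. The tissue is a piece of whole heart wall, so a lower level can mean fewer cells of a type or less RNA per cell, which cannot be told apart in bulk samples.

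Cholesterol is built from acetyl-CoA through mevalonate and squalene. The early enzymes make isoprenoid units and squalene, and the later ones close the ring to lanosterol and trim it to cholesterol. SREBP-2, a transcription factor held in the endoplasmic reticulum by Scap and the Insig proteins when sterols are plentiful, raises the genes of the whole route together when sterols fall, and SREBP-1c, made from Srebf1, mainly serves fatty acid synthesis. HSD17B7 is the 3-ketosteroid reductase of the pathway, acting after demethylation at carbon 4 of the sterol ring, and it can also reduce estrone to estradiol. The heart makes little cholesterol compared with liver.

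Hsd17b7 lies on chromosome 1 beside 3110045C21Rik, a gene for a long non-coding RNA read from the opposite strand. In the RefSeq tables of GRCm38.p6, the tabled start of 3110045C21Rik lies 204 bases from the tabled start of Hsd17b7, with 166 bases between the outer ends of the gene models. This stretch is shown because both transcripts were lower in C3H, as described below. The windows before Hmgcs1 and Insig1 are shown beside it as members that carry motifs of the pathway and whose brightest probe sets differed little. Dimmer probe sets of Hmgcs1 were lower in C3H, as described below. Capitals mark matches on either strand to CCAAT (the NF-Y box, which reads ATTGG on the other strand), GGGCGG (the Sp1 box, CCGCCC on the other strand), CACGTG (an E-box, the same on both strands) and TCACNCCAC (a sterol regulatory element of the LDL receptor type). No match in these windows overlaps another. The sequences are RefSeq's for the reference strain C57BL/6J, and the sequence of C3H was not analysed here.
Hsd17b7 to 3110045C21Rik, chr1:169969243-169969408, minus strand, 5′ to 3′ toward Hsd17b7: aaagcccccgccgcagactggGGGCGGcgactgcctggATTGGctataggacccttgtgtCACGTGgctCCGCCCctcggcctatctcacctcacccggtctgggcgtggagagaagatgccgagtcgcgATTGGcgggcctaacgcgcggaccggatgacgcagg
Hmgcs1, chr13:119690101-119690350, plus strand: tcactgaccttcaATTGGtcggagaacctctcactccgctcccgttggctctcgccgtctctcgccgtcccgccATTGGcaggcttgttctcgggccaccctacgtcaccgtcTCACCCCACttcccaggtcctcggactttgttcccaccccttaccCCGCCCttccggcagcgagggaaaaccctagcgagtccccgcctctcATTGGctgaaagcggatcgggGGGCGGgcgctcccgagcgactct
Insig1, chr5:28071162-28071411, plus strand: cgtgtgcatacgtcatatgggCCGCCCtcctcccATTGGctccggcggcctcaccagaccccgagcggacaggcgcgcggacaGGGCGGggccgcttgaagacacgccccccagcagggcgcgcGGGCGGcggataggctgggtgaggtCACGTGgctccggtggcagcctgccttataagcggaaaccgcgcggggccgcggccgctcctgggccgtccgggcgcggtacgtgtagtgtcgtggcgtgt

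The promoter table held 8 windows of 6 of the 8 genes, with Sqle and Fdps not among them. In the 250 bases before the start, CCAAT was found in 6 of the 8 windows, beside 33.85% of 32851 tabled promoters. GGGCGG was found in 7 of the 8 windows, beside 32.74%. CACGTG was found in 3 windows (1 each of Hsd17b7, Insig1 and Dhcr7), beside 6.02% of all promoters. TCACNCCAC was found in 1 window, of Hmgcs1, beside 1.05%. The printed stretch between Hsd17b7 and its neighbour holds 2 CCAAT, 2 GGGCGG and 1 CACGTG. These are matches of letters and not measured binding sites.

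All levels below are log2(signal + 16), where signal is the deposited linear value and 16 is a constant that damps differences among dim probe sets, so the change of low genes is understated. Differences are log2 differences with the standard error (SE) of a limma fit over all genes and 15 arrays, and the midparent is the mean of both parental means. A probe set whose mean lay below 5.74, the 40th percentile of all means, was called dim and not tested. Of the 19 probe sets 16 passed this filter, and each of the 8 genes kept at least 1. Levels are compared between strains within a probe set and never between probe sets.

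On its brightest probe set, 1457248_x_at, Hsd17b7 was about 8 times lower in C3H hearts than in C57Bl/6 hearts, and the hybrid mean lay at the C57Bl/6 mean. The sizes differed on its other probe sets, whose values follow. On 1457248_x_at the 5 C57Bl/6 arrays read 10.64, 10.67, 10.62, 10.59 and 10.71. The 5 B6C3F1 arrays read 10.31, 10.66, 10.74, 10.59 and 10.83. The 5 C3H arrays read 7.82, 8.06, 7.66, 7.69 and 7.15. Every C3H array lay below every array of the other groups, and the C57Bl/6 and B6C3F1 arrays overlapped. The C3H mean was 7.68 ± 0.33 (SD, n = 5) against 10.65 ± 0.05 in C57Bl/6 and 10.63 ± 0.20 in B6C3F1. C3H minus C57Bl/6 was -2.97 ± 0.14 (SE; 95% interval -3.26 to -2.68), a 7.84-fold difference. B6C3F1 minus C57Bl/6 was -0.02 ± 0.14 (-0.31 to 0.27), and B6C3F1 minus the midparent was 1.46 ± 0.12 (1.22 to 1.71). On the linear scale the C3H mean was 12.1% of the C57Bl/6 mean, and the B6C3F1 mean was 99.2% of the C57Bl/6 mean and 177% of the mean of both parents. A hybrid that lay at the mean of its parents on the linear scale would be at 100% there.

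The design of a probe set ending in _x_at can match more than 1 transcript, so the other 3 probe sets of Hsd17b7 bear on the value. On 1448865_at the C57Bl/6 arrays read 8.75, 8.42, 8.86, 9.06 and 8.91, the B6C3F1 arrays 8.58, 8.55, 8.56, 8.69 and 8.74, and the C3H arrays 6.92, 4.48, 6.01, 6.61 and 6.23. Again all C3H arrays were lowest, with a difference between the parents of -2.75 ± 0.30 (6.73-fold), and B6C3F1 minus C57Bl/6 was -0.18 ± 0.30 (-0.81 to 0.45). On 1417871_at the C57Bl/6 arrays read 8.62, 8.52, 8.33, 8.69 and 8.22, the B6C3F1 arrays 9.00, 9.29, 9.03, 9.21 and 9.13, and the C3H arrays 6.77, 6.72, 7.36, 6.32 and 7.09. Here the difference between the parents was smaller, -1.63 ± 0.17 (3.09-fold), and all 5 B6C3F1 arrays lay above all arrays of both parents, with B6C3F1 minus C57Bl/6 at 0.66 ± 0.17 (0.30 to 1.01). Of the 19 probe sets this was the 1 in which all hybrid arrays lay outside both parents.

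The fourth probe set, 1440057_at, was close to the dim limit, with ranges of 5.53 to 6.80 in C57Bl/6, 6.01 to 7.23 in B6C3F1 and 4.27 to 6.2 in C3H. The parental groups overlapped there, and their difference of -0.68 ± 0.38 had an interval (-1.48 to 0.11) that includes 0. Thus 3 of 4 probe sets separated C3H from both other groups, and none of the 4 placed the B6C3F1 mean at the midparent or below it. The parental difference ranged from -2.97 to -0.68 across these probe sets, as the plot of Hsd17b7 by strain shows. Without probe sets ending in _x_at or _s_at, the difference of the gene rested on 1417871_at and was -1.63. The positions of the array's probes and strain differences in their target sequence were not analysed here.

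**Figure D1:**
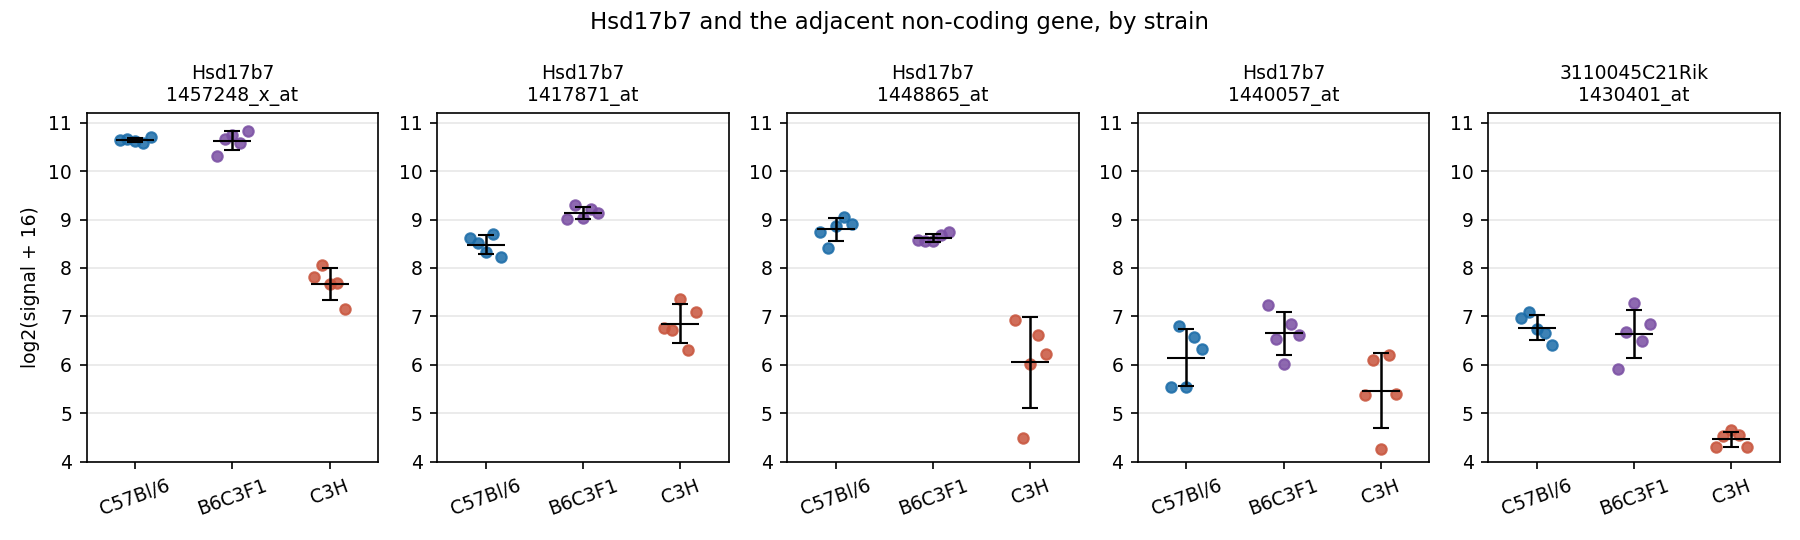
Levels, log2(signal + 16), of the 4 Hsd17b7 probe sets and of 3110045C21Rik in C57Bl/6, B6C3F1 and C3H hearts, with 1 point per array and black bars for the mean ± SD (n = 5). All C3H arrays lie below all others in each panel except 1440057_at. The B6C3F1 mean lies between 0.18 below the C57Bl/6 mean (1448865_at) and 0.66 above it (1417871_at).

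The place of the hybrid was set against the other genes with a large fall. Of the genes that passed between the parents, 50 were lower in C3H by at least 2 log2 units. Hsd17b7 was number 18 among all 13111 genes tested, ordered by the size of the fall in C3H. With the log2 mean of C57Bl/6 set to 0 and that of C3H to 1, the median place of B6C3F1 over the 50 genes was 0.26. On its brightest probe set, 1457248_x_at, Hsd17b7 was at 0.0072, 1 of 2 genes within 0.1 of the C57Bl/6 mean or beyond it. With that set, no other of the 50 was as near or beyond. The second of these 2 genes was 3110045C21Rik, which lies beside Hsd17b7 and is described next. The place of Hsd17b7 depended on the probe set. It was 0.064 on 1448865_at, -0.40 on 1417871_at and -0.73 on 1440057_at, where the parents overlapped. Because Hsd17b7 was chosen with this pattern known, its place is a description.

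Among the 5 tested genes on each side of Hsd17b7 in the gene order, the non-coding neighbour 3110045C21Rik had the same order of strains. Its single probe set, 1430401_at, read 6.96, 7.08, 6.74, 6.65 and 6.41 in C57Bl/6, 5.91, 6.67, 7.27, 6.49 and 6.85 in B6C3F1, and 4.29, 4.52, 4.65, 4.54 and 4.30 in C3H. All C3H arrays lay below all others and below the dim limit of 5.74, so this RNA was close to the lower end of the scale in C3H. The probe set passed the dim filter, and so was tested, only through its C57Bl/6 and B6C3F1 arrays. The C3H mean was lower than the C57Bl/6 mean by a log2 difference of -2.31 ± 0.30 (limma, adjusted p = 1.19e-05, n = 5 per group), and B6C3F1 minus C3H was 2.18 ± 0.30 (limma, adjusted p = 9.95e-05). B6C3F1 minus C57Bl/6 was -0.13 ± 0.30 (-0.75 to 0.49). B6C3F1 minus the midparent was 1.02 ± 0.26 and did not pass (limma, adjusted p = 0.0842). The size depends on the added constant, from -3.79 with 1 to -1.17 with 64. Whether probes or transcripts of both genes overlap was not tested.

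The other 9 neighbours differed less between the parents. Of the 10 neighbours, 3 passed between the parents, all lower in C3H, against 15.7% of the 13111 genes tested that passed at an adjusted p under 0.05. Rgs5, a regulator of G protein signalling found in pericytes, was lower in C3H by a log2 difference of -0.40 ± 0.08 (limma, adjusted p = 0.00134), with the hybrid at the C57Bl/6 side (B6C3F1 minus C3H 0.36 ± 0.08, limma adjusted p = 0.00859). That hybrid difference no longer passed with each array centred on its median (adjusted p = 0.0683) or after adjusting for the poly-A controls (0.0817). Uhmk1, a protein kinase, was lower in C3H (-0.47 ± 0.13, limma, adjusted p = 0.017) and also in B6C3F1 (-0.48 ± 0.13, limma, adjusted p = 0.0422), so its hybrid was at the C3H level. The first of these calls of Uhmk1 was lost without C57Bl/6 replicate 5 or without C3H replicate 4 (adjusted p 0.0532 to 0.0542), and the second without any one of C57Bl/6 replicates 1, 3, 4 and 5 and B6C3F1 replicates 1, 2, 3 and 4 (0.0510 to 0.110). Median centring ended both calls, adjusting for the poly-A controls the first, and a fit without trend the second (adjusted p 0.0825 to 0.149). Mgst3, Lrrc52, Rxrg, Rgs4, Ddr2, Uap1 and Gm7694 did not pass in any of the 4 comparisons.

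The remaining 7 genes of the pathway differed little between the parents on their brightest probe sets. Between C3H and C57Bl/6, 1 of the 8 genes passed, which was Hsd17b7, beside 15.7% of all genes. The genes were chosen on the hybrid against both parents, so no calls are given for the B6C3F1 contrasts. The parental values were known as well, so nothing is read from the count. The median C3H minus C57Bl/6 difference of the 7 other genes was -0.08, beside -0.02 over all genes tested.

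Hmgcs1 makes HMG-CoA, the substrate of the step that leads to mevalonate, and its value depended on the probe set. On the brightest, 1433443_a_at, the ranges were 12.10 to 12.40 in C57Bl/6, 12.26 to 12.50 in B6C3F1 and 11.97 to 12.36 in C3H, all overlapping, with C3H minus C57Bl/6 at -0.08 ± 0.09 (-0.26 to 0.10). On 1433446_at the C57Bl/6 arrays read 9.12, 8.52, 9.13, 9.01 and 9.12, the B6C3F1 arrays 8.29, 8.10, 7.99, 7.90 and 8.81, and the C3H arrays 8.47, 8.09, 7.96, 7.38 and 8.26. All C3H arrays were below all C57Bl/6 arrays there, the difference was -0.95 ± 0.20 (-1.37 to -0.53), and the hybrid was nearer C3H, with B6C3F1 minus C57Bl/6 at -0.76 ± 0.20.

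Another pair of Hmgcs1 probe sets gave a smaller difference in the same direction. On 1433445_x_at C3H minus C57Bl/6 was -0.52 ± 0.13, with C3H at 10.03 to 10.57 and C57Bl/6 at 10.60 to 11.14. On 1433444_at it was -0.50 ± 0.14, with C3H at 9.82 to 10.39 and C57Bl/6 at 10.44 to 10.87. The groups did not overlap in either, and the B6C3F1 mean lay at the midparent (0.01 ± 0.11 and 0.01 ± 0.12 from it). The fifth probe set, 1441536_at, was dim (4.16 to 6.02 over all arrays). When every probe set was tested on its own, 6 of the 16 member probe sets passed as lower in C3H and none as higher, beside 7.49% and 6.17% of 23048 probe sets. The 6 were 3 of Hsd17b7 and 3 of Hmgcs1, so they stand for only 2 genes, and because the members were chosen with this contrast known, nothing is read from their number.

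Idi1 interconverts the isoprenoid building blocks isopentenyl and dimethylallyl diphosphate. Its 1451122_at ranged from 8.13 to 8.59 in C57Bl/6, 8.11 to 9.02 in B6C3F1 and 7.63 to 8.70 in C3H, with overlap in all pairs of groups and C3H minus C57Bl/6 at -0.14 ± 0.21 (-0.58 to 0.30). This difference depended on RNA covariates. It was -0.43 ± 0.18 with the Gapdh 3 prime over 5 prime log2 ratio, a sign of RNA integrity, in the fit. With the signal of the poly-A control RNAs as a covariate it was 0.09 ± 0.22. On 1423804_a_at the C57Bl/6 arrays read 6.75, 7.47, 7.09, 6.17 and 7.07, the B6C3F1 arrays 7.52, 7.11, 7.14, 7.08 and 7.46, and the C3H arrays 5.80, 6.34, 6.94, 6.86 and 6.97. All B6C3F1 arrays were above all C3H arrays there (0.68 ± 0.26, interval 0.13 to 1.23), and both overlapped C57Bl/6.

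Fdps joins isoprenoid units into farnesyl diphosphate, the branch point to squalene and to protein prenylation. On 1423418_at it ranged from 7.16 to 7.76 in C57Bl/6, 7.0 to 7.65 in B6C3F1 and 6.76 to 7.62 in C3H, and C3H minus C57Bl/6 was -0.24 ± 0.20 (-0.66 to 0.18). This value moved to -0.05 with the signal of the poly-A control RNAs as a covariate and to -0.09 without C3H replicate 4. The groups overlapped throughout, and its other probe set, 1438150_at, was dim (4.14 to 5.65). Sqle, squalene epoxidase, a rate-limiting step after squalene, had 1 probe set and varied most within strains. It ranged from 6.57 to 7.27 in C57Bl/6, 6.64 to 7.88 in B6C3F1 and 6.14 to 7.35 in C3H, with C3H minus C57Bl/6 at 0.04 ± 0.27 (-0.53 to 0.60). Its within-strain SD was 0.44, higher than that of 77.2% of genes, while that of Hmgcs1 was 0.12, higher than 6.41%.

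Cyp51, the lanosterol demethylase, and Dhcr7, the reductase of the last step, were slightly higher in the hybrid than in either parent by their means. The same held for Sqle, Idi1 and Hmgcs1 on their brightest probe sets. There B6C3F1 minus the midparent was 0.32 ± 0.23, 0.24 ± 0.18 and 0.11 ± 0.08, with intervals that include 0. For Fdps and Insig1 it was -0.15 ± 0.17 and -0.08 ± 0.15. On 1450646_at of Cyp51 the C57Bl/6 arrays read 7.50, 7.57, 8.13, 7.61 and 7.96, the B6C3F1 arrays 8.04, 8.03, 7.95, 8.0 and 8.52, and the C3H arrays 7.64, 7.92, 7.93, 7.59 and 7.78. The B6C3F1 arrays were all above the C3H arrays, narrowly at the nearest pair (7.95 and 7.93), and overlapped C57Bl/6. B6C3F1 minus the midparent was 0.34 ± 0.14 (0.05 to 0.64) on this set and 0.27 ± 0.18 (-0.11 to 0.66) on 1422533_at, and the third, 1422534_at, was dim (4.25 to 5.67). On the 1 probe set of Dhcr7 the C57Bl/6 arrays read 8.16, 8.41, 7.96, 7.97 and 8.15, the B6C3F1 arrays 8.56, 8.79, 8.30, 8.54 and 8.51, and the C3H arrays 8.12, 8.28, 7.95, 8.06 and 8.52. The hybrid was higher by its mean, with overlap in both pairs, and B6C3F1 minus the midparent was 0.38 ± 0.12 (0.12 to 0.64). Neither gene differed detectably between the parents (0.02 ± 0.16 and 0.06 ± 0.14).

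Insig1, which holds the SREBP complex in the endoplasmic reticulum and is itself an SREBP target, ranged from 7.64 to 7.96 in C57Bl/6, 7.24 to 8.03 in B6C3F1 and 7.29 to 8.10 in C3H. The groups overlapped, with C3H minus C57Bl/6 at -0.21 ± 0.18 (-0.58 to 0.16) and B6C3F1 minus the midparent at -0.08 ± 0.15 (-0.40 to 0.24). Over the brightest probe sets, all B6C3F1 arrays lay above all C3H arrays for 2 of the 8 genes, Hsd17b7 and Cyp51, beside 3.63% of all genes. All C3H arrays lay below all C57Bl/6 arrays for 1, Hsd17b7, beside 6.17%. B6C3F1 minus the midparent was above 0 for 6 of the 8 genes, beside 55.1% of all genes, and its median was 0.28, or 0.24 without Hsd17b7, beside 0.03 over all genes. The choice of the genes used these values too.

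**Figure D2:**
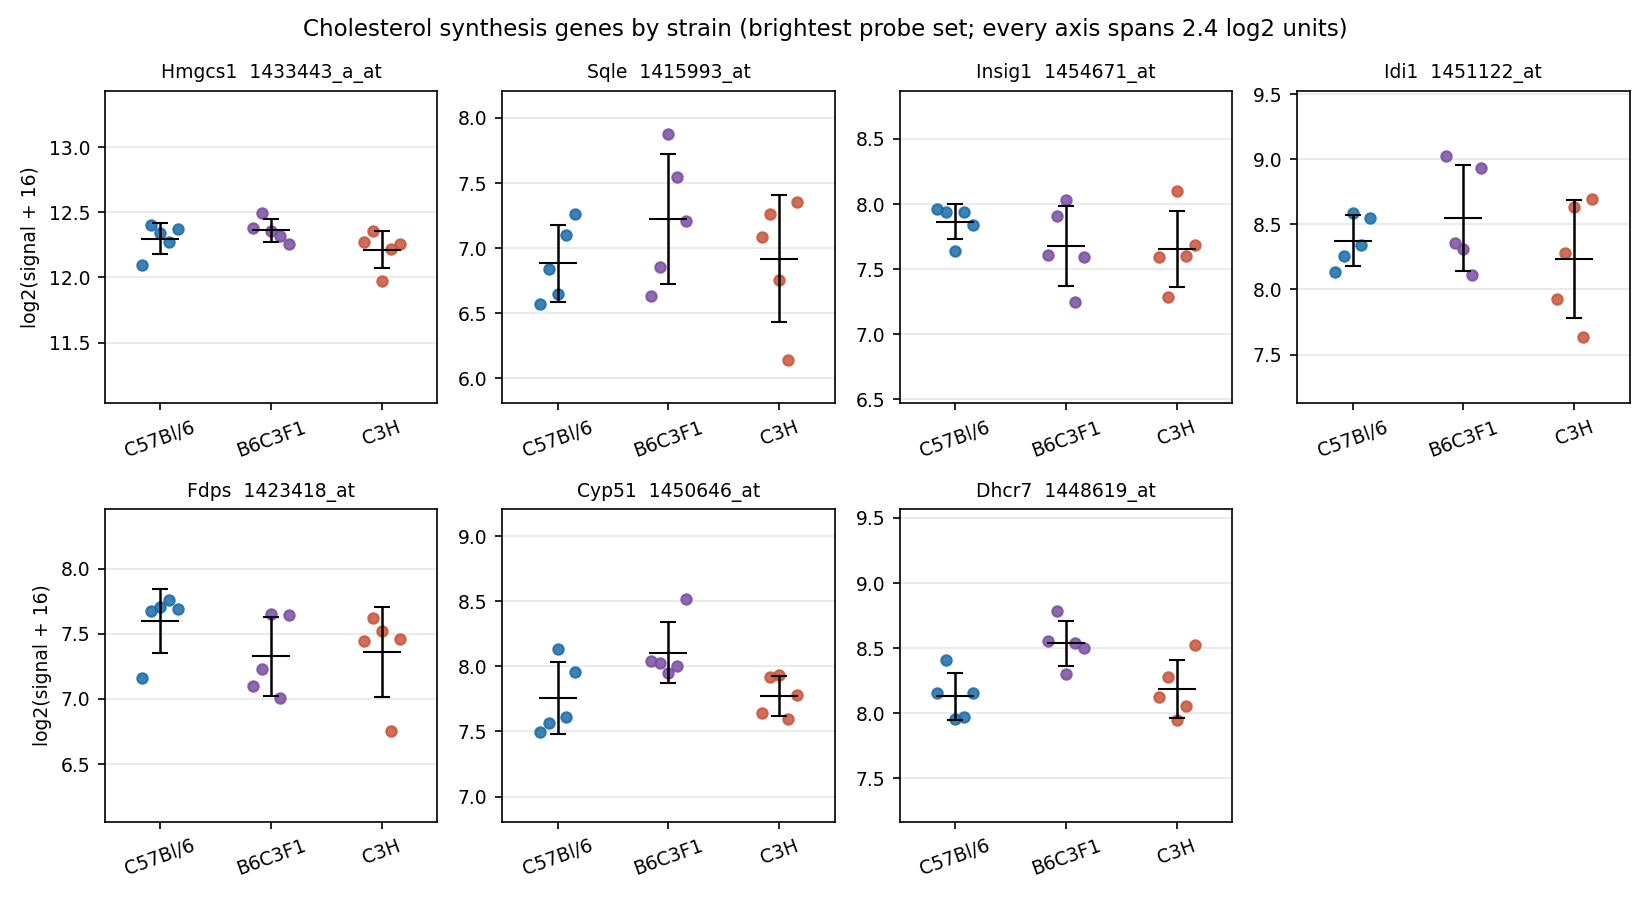
Levels, log2(signal + 16), of the 7 other genes on their brightest probe sets in C57Bl/6, B6C3F1 and C3H hearts, with 1 point per array and black bars for the mean ± SD (n = 5). The strains overlap in each panel, except that all B6C3F1 arrays of Cyp51 (7.95 to 8.52) lie above all C3H arrays (7.59 to 7.93).

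**Figure D3:**
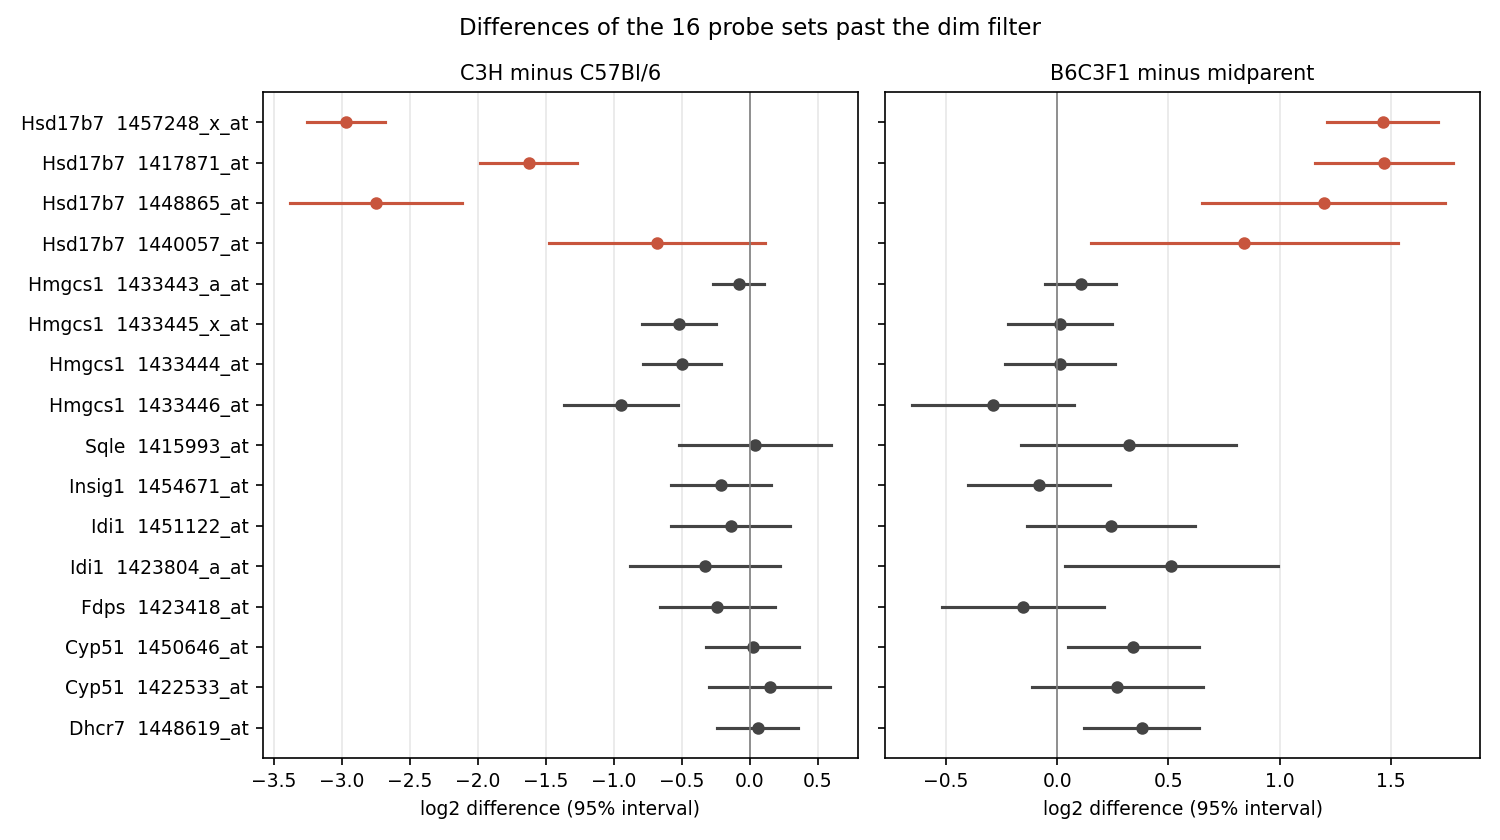
Log2 differences C3H minus C57Bl/6 (left) and B6C3F1 minus the midparent (right) for the 16 probe sets past the dim filter, with points for the estimate, lines for the 95% interval and Hsd17b7 in red. Hsd17b7 reaches -2.97 on the left and 1.47 on the right, while the other sets stay between -0.95 and 0.14 on the left and between -0.29 and 0.51 on the right.

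The rest of the pathway was read from 8 lists of related genes, which hold 89 genes without the 8 members. A probe set with 1 symbol was used for 76 of them and 71 passed the dim filter, while the other 13 were not analysed here. Between the parents 14 of the 71 passed, with 6 higher and 8 lower in C3H (10 and 3 with each array centred on its median, a scaling that moved the median difference of all genes from -0.02 to 0.08), which is 19.7% beside 15.7% of all genes. In B6C3F1 minus C57Bl/6, 2 passed (2.82% beside 3.83%), in B6C3F1 minus C3H 7 (9.86% beside 6.2%), and in B6C3F1 minus the midparent 1 (1.41% beside 0.633%). The median parental difference was 0.04 over the lists and -0.02 over all genes.

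The other enzymes of the route to cholesterol showed small differences or none that passed. None of the 4 early enzymes tested (Mvk, Pmvk, Mvd and Fdft1) passed in any comparison, and their parental differences ran from -0.37 to 0.27. Of the 8 tested between squalene and cholesterol, 2 passed. Ebp, the sterol isomerase, was lower in C3H by a log2 difference of -0.39 ± 0.13 (limma, adjusted p = 0.0408). Cyb5r3, a cytochrome b5 reductase that feeds electrons to sterol and fatty acid enzymes, was higher in C3H by 0.37 ± 0.09 (limma, adjusted p = 0.00517). Without probe sets ending in _x_at or _s_at the difference was -0.0054, on 1422185_a_at. Another tested set of Cyb5r3, 1425329_a_at, gave 0.41 ± 0.18 and did not pass (limma over every probe set, adjusted p = 0.152). Nsdhl, the enzyme just before HSD17B7, stood at 0.39 ± 0.14 and did not pass (limma, adjusted p = 0.0606). The call of Ebp was lost without any one of 9 arrays (C57Bl/6 replicates 1, 3, 4 and 5, B6C3F1 replicates 3 and 4, and C3H replicates 2, 3 and 4), at adjusted p 0.0501 to 0.105.

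In the control of the pathway, 1 of 9 tested genes passed between the parents. Srebf1 was higher in C3H, at 10.41 to 11.69 (median 11.57), than in C57Bl/6, at 9.30 to 10.22 (median 9.79), with the B6C3F1 mean between theirs and its arrays at 9.75 to 10.43 (median 10.39). The groups of the parents did not overlap, and the difference was 1.56 ± 0.21 (limma, adjusted p = 2.18e-05). B6C3F1 minus C3H was -1.13 ± 0.21 (limma, adjusted p = 0.00222), so this transcript ran in the opposite direction to Hsd17b7. Srebf2, which encodes the cholesterol-side factor SREBP-2, stood at 0.08 ± 0.23 (limma, adjusted p = 0.854), Scap at 0.22 ± 0.12 (0.244) and Insig2 at 0.03 ± 0.09 (0.848).

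The fatty acid synthesis list had the most calls, 5 of 14 tested between the parents, with 1 higher and 4 lower in C3H. Thrsp, a regulator of lipogenic enzymes, was at 8.46 to 9.22 (median 8.84) in C3H, 10.36 to 11.25 (median 10.85) in C57Bl/6 and 10.30 to 10.59 (median 10.45) in B6C3F1. All C3H arrays were lowest, and C3H minus C57Bl/6 was -2.0 ± 0.16 (limma, adjusted p = 1.21e-08). Thrsp also had the 1 call against the midparent among the lists, 0.65 ± 0.13 (limma, adjusted p = 0.0264), which was lost without any one of C57Bl/6 replicate 1 and B6C3F1 replicates 1, 2, 3 and 4 (adjusted p 0.0512 to 0.0946). Its other probe set, 1422973_a_at, had a parental difference of -0.58 ± 0.24.

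Me1, malic enzyme, a source of NADPH, was at 10.99 to 11.17 in C3H, 11.70 to 11.97 in C57Bl/6 and 11.47 to 11.68 in B6C3F1, with no overlap between any of the groups (C3H minus C57Bl/6 -0.79 ± 0.08, limma, adjusted p = 6.24e-07). Scd2, a fatty acid desaturase, was higher in C3H at 10.22 to 11.26 than in C57Bl/6 at 9.64 to 9.99 (0.75 ± 0.15, limma, adjusted p = 0.00189) on its brightest probe set. The other probe sets of Scd2, which were dimmer, gave 0.03 ± 0.39 and 0.11 ± 0.43. Mid1ip1, a partner of acetyl-CoA carboxylase, was lower in B6C3F1 than in C3H (-0.78 ± 0.17, limma, adjusted p = 0.00829). Of the adipocyte markers, which share lipogenic genes, 6 of 8 had a probe set and 1 of these, Plin4, passed the dim filter, with no call between the parents. Adipoq, Lep, Retn, Cidec and Ucp1 were dim, and the level of Plin4 (log2 of its signal) was 11.24 to 12.08 in C57Bl/6, 11.16 to 11.60 in B6C3F1 and 11.43 to 12.59 in C3H.

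Sterol handling and side branches gave few calls. Npc1, which exports cholesterol from lysosomes, was higher in C3H (0.54 ± 0.15, limma, adjusted p = 0.0206), as were Cyp27a1, the sterol 27-hydroxylase (0.51 ± 0.10, adjusted p = 0.00186), and Lipa, the lysosomal cholesteryl ester hydrolase (0.32 ± 0.10, adjusted p = 0.0279). In the isoprenoid branches, Pdss2 (-0.45 ± 0.10, limma, adjusted p = 0.00331) and Coq2 (-0.35 ± 0.10, adjusted p = 0.022), both of coenzyme Q synthesis, were lower in C3H. Rabggtb, a subunit of Rab geranylgeranyl transferase, was lower in B6C3F1 than in C57Bl/6 (-0.41 ± 0.11, limma, adjusted p = 0.0352). Of the relatives of Hsd17b7, 1 of 8 tested passed, Hsd17b12, an enzyme of very long chain fatty acid synthesis (-0.38 ± 0.12, limma, adjusted p = 0.0325), against the -2.97 of Hsd17b7.

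Several of these calls lay near the threshold and were lost when any one of several arrays was left out. Npc1 lost its call without any one of C57Bl/6 replicates 2 and 5 and C3H replicate 3 (adjusted p 0.0555 to 0.0663), and Coq2 without any one of C57Bl/6 replicate 1 and C3H replicates 1 and 2 (0.0515 to 0.0601). Lipa lost it without any one of C57Bl/6 replicates 1, 3 and 5 and C3H replicates 3 and 4 (0.0552 to 0.0860), and Hsd17b12 without any one of C57Bl/6 replicates 2, 3 and 5 and C3H replicates 3 and 4 (0.0647 to 0.0965). Rabggtb lost it without any one of C57Bl/6 replicates 1, 3 and 4 and B6C3F1 replicates 1, 2, 3 and 4 (0.0700 to 0.103). Other settings ended calls too, mainly median centring and adjusting for the poly-A controls: Ebp (adjusted p 0.0595 to 0.219), Hsd17b12 (0.0526 to 0.229), Lipa (0.0649 to 0.865, the highest without probe sets ending in _x_at or _s_at), Npc1 (0.144), Coq2 (0.0975 to 0.141), Pdss2 (0.0730), Mid1ip1 (0.0680), Rabggtb (0.0805 to 0.103) and Thrsp against the midparent (0.0800 to 0.0947). The calls of Srebf1, Thrsp, Me1, Scd2 and Cyp27a1 between the parents, on the probe sets that stand for these genes, held in the 30 alternatives run.

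**Figure D4:**
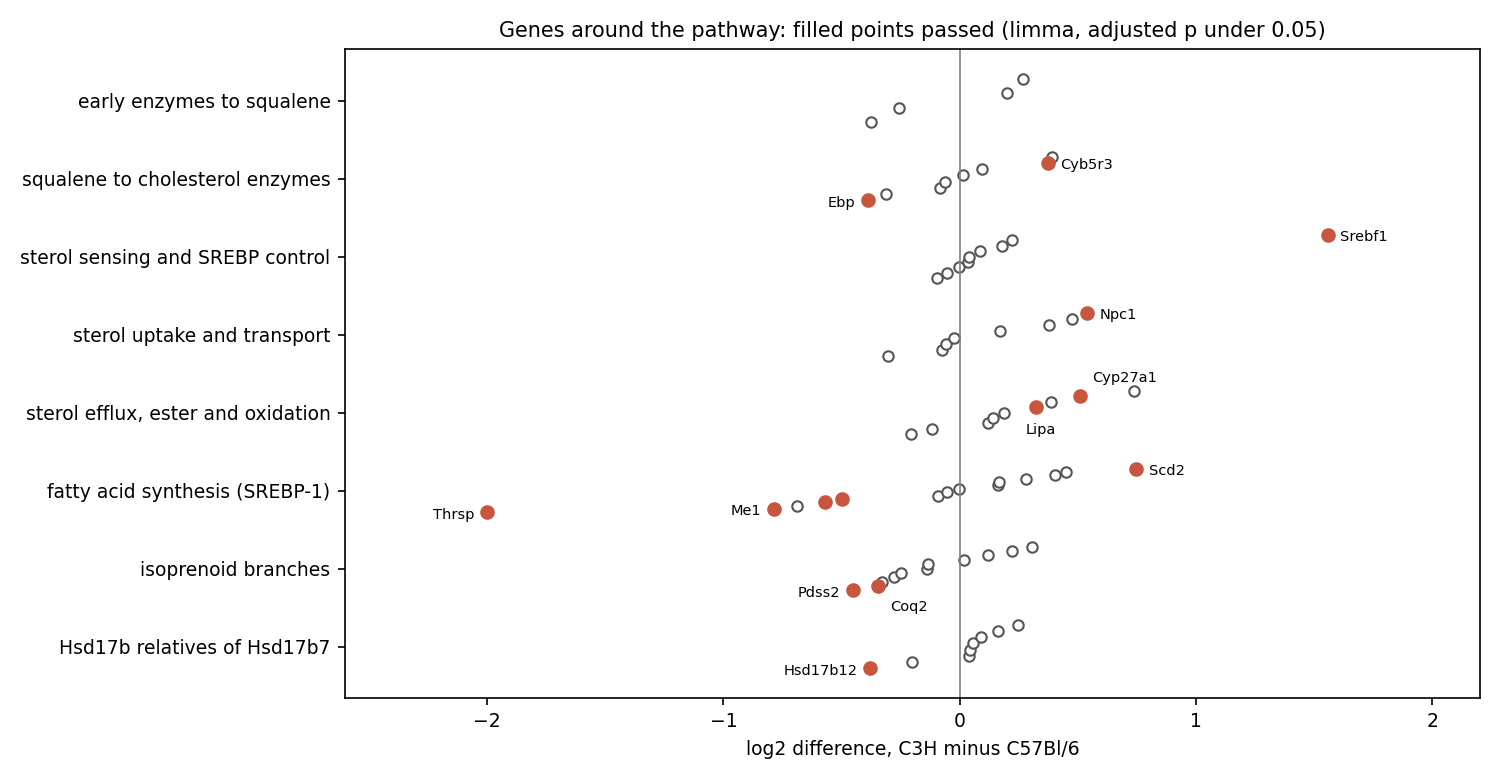
Log2 differences C3H minus C57Bl/6 for the 71 tested genes of 8 lists around the pathway, with 1 point per gene and filled points for the 14 genes that passed (limma, adjusted p under 0.05). Srebf1 (1.56) and Thrsp (-2.0) lie farthest out, and most other points fall within 0.5 of 0.

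The members were next compared mouse by mouse within strains, a measure free of the strain means that chose them. For each of 28 pairs of genes, each array's deviation from its strain mean was correlated over 15 arrays, with a two-sided permutation test within strains (100000 resamples). By Pearson's r none of the 28 pairs passed after Benjamini-Hochberg adjustment, and 3 had an unadjusted p under 0.05. The median r was 0.10, and 17 pairs were positive, beside a median of 0.00 and a 5th to 95th percentile range of -0.52 to 0.53 over all pairs of genes. The highest values were those of Idi1 with Cyp51 and of Sqle with Fdps.

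Idi1 and Cyp51 had r = 0.65 (permutation p = 0.00338, adjusted p = 0.0946) and rho = 0.70 (permutation p = 0.00171, adjusted p = 0.0479), and r = 0.74 without the 2 arrays farthest from the median of Idi1. Sqle and Fdps had r = 0.65 (permutation p = 0.0241, adjusted p = 0.337) and rho = 0.60 (permutation p = 0.0406, adjusted p = 0.504), and r = 0.40 without 2 arrays. Fdps and Cyp51 had r = 0.52 (permutation p = 0.0488, adjusted p = 0.455) and rho = 0.48 (permutation p = 0.0720, adjusted p = 0.504), and r = 0.36 without 2 arrays. Hsd17b7 had r between -0.36 and 0.28 with the other 7 genes, with no adjusted p below 0.911. Without B6C3F1 replicate 1 or without B6C3F1 replicate 4, 1 pair passed by r (smallest adjusted p 0.0311 and 0.0498).

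The probe sets of 1 gene did not always vary together either, which limits what such correlations can show. The 3 dimmer tested sets of Hmgcs1 had r of 0.38 to 0.75 with each other, but -0.22 to 0.08 with the brightest. The sets of Hsd17b7 had r of -0.52 to 0.03 with each other within strains. Across strains, 3 of them fell together.

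**Figure D5:**
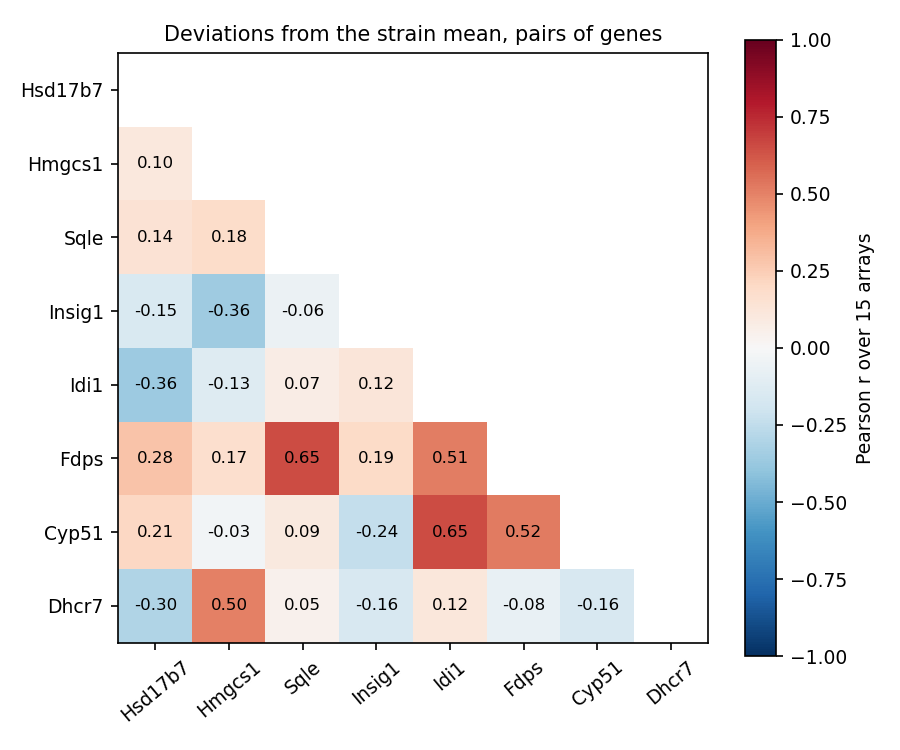
Pearson r over 15 arrays between the deviations of 2 genes from their strain means, for the 28 pairs of members, with red for positive and blue for negative values. Idi1 with Cyp51 and Sqle with Fdps (both 0.65) are highest, and the Hsd17b7 column stays between -0.36 and 0.28.

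The genes outside the pathway whose levels over the 15 arrays were most like the mean standardised level of the 8 members were Fabp7 (r = 0.93), Auts2 (0.92), Efhd1 (0.92), Pxdn (0.91) and Fcrls (0.89). For deviations from the strain mean they were Pmepa1 (r = 0.90), Col6a3 (0.89), Fap (0.87), Efhd1 (0.87) and Laptm5 (0.86). These are the highest of 13103 genes, share the arrays and their labelling, and are given as a description.

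The tissue and the RNA were read from control values. Of 8 cardiomyocyte markers (among them Myh6, Tnni3 and Ryr2) 8 passed the dim filter and none passed the test between the parents, with a summed level (log2 of summed signal) of 18.65 to 19.07 in C57Bl/6, 18.47 to 19.03 in B6C3F1 and 18.43 to 18.87 in C3H. Between the parents, 2 of 6 fibroblast markers and 1 of 2 hepatocyte markers were higher in C3H, and 2 of 6 endothelial, 1 of 5 smooth muscle and pericyte and 1 of 2 red cell markers lower, with 1 of 6 macrophage markers in each direction, beside 15.7% of all genes tested that passed. The summed level of the hepatocyte markers was 6.75 to 6.99 in C57Bl/6, 6.71 to 7.57 in B6C3F1 and 7.53 to 9.05 in C3H, with no overlap between the parents, and Apoa1 was dim. The summed levels of the parents overlapped for fibroblast (14.80 to 15.18 in C57Bl/6, 15.13 to 15.45 in B6C3F1 and 15.01 to 15.53 in C3H), endothelial (12.90 to 13.26, 12.62 to 13.32 and 12.20 to 13.04), macrophage (12.75 to 13.44, 13.24 to 13.43 and 12.54 to 13.33), smooth muscle and pericyte (15.40 to 15.54, 15.29 to 15.57 and 15.11 to 15.73) and red cell markers (10.58 to 11.73, 10.52 to 10.98 and 9.97 to 11.29), with Cnn1 and Hba-a1 dim. The smooth muscle and pericyte marker that was lower in C3H was Rgs5, the neighbour of Hsd17b7 described above. The part of cell makeup in the strain differences was not tested. Poly-A control RNAs added at labelling were 8.69 ± 0.60 in C57Bl/6, 8.70 ± 0.15 in B6C3F1 and 9.34 ± 0.64 in C3H (mean log2 ± SD, n = 5), with C3H replicate 4 highest at 10.48. The Gapdh 3 prime over 5 prime log2 ratio, a sign of RNA integrity, was 0.85 ± 0.24, 0.90 ± 0.21 and 0.60 ± 0.26. Within strains, 1 of 16 relations of a member to these controls passed by r, Idi1 with the Gapdh ratio (r = -0.75, permutation p = 0.00241, adjusted p = 0.0386, rho = -0.66, permutation p = 0.0133, adjusted p = 0.106, r without 2 arrays -0.71). Cyp51 with the Gapdh ratio had r = -0.67 (permutation p = 0.00686, adjusted p = 0.0549) and rho = -0.76 (permutation p = 0.00213, adjusted p = 0.0341), so both genes of the pair with the highest rho had negative correlations with this ratio. None of the 28 pairs passed by r, with or without the Gapdh ratio and the poly-A signal regressed out. The smallest adjusted permutation p was 0.646 with both regressed out and 0.0946 without. The median r of the pairs was 0.12 with both regressed out and 0.10 without. The part of RNA quality in these correlations was not tested. Hsd17b7 had r = 0.04 with the poly-A controls and 0.00 with the Gapdh ratio.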

How the data were processed

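Total RNA (50 ng) of 15 hearts was amplified in 2 labelling cycles and hybridised to Affymetrix arrays, per the labels' protocols. The table deposited by the authors holds log2 signals, 1 per probe set and array, made with MAS5 per the submitters' processing notes, which name no version. The log2 step and scaling were read from the values: the 2% trimmed mean was 500.26 to 500.28 on each array. The number of arrays limits the precision. No 2 arrays were identical. The labels name 5 separate mice per strain and no hybridisation batch. Sample numbers run in 1 block per strain, so handling order and strain cannot be told apart. Replicates are numbered here in the order of the sample numbers within each strain.

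Signals were made linear, 16 was added and log2 taken. Of 45096 probe sets, 34940 had 1 gene symbol (932 had several and 9160 none in the annotation used; 64 are controls). The gene was its brightest set, and sets below the 40th percentile were left out, which left 13111 genes for limma 3.58.1 in R 4.3.3 (lmFit, eBayes with trend, Benjamini-Hochberg over all genes, 95% intervals). The procedure was tested on simulated data.

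The members and lists were chosen with earlier results of these data known. Named were the members with all probe sets, Srebf1, Srebf2, Scap and Insig2, up to 4 called genes per list, the 5 genes most like the members by each measure, and 5 tested neighbours of Hsd17b7 on each side. Nsdhl and the early enzymes are named beyond this rule, a choice made after seeing their values. Same-numbered mice did not deviate together: 15 pair correlations ran from -0.06 to 0.13, with 2 over 0.1.

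Alternatives covered the added constant (1 and 64), the dim filter, quantile normalization, median centring, probe set choice, the eBayes setting, the strains in the fit, the replicate block, covariates, array weights and leaving out each array. For pairs, the mean of a gene's probe sets was added after seeing the data.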

Additional observations from a re-analysis of the deposited data

Results flagged for a closer look

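In 57 groups (19 probe sets in 3 strains), the highest or lowest of 5 arrays was checked against Dixon's critical value of 0.71, and 7 groups held an array that stood apart. Chance gives about 5% of groups. C57Bl/6 replicate 2 read 8.52 on Hmgcs1 1433446_at, where the other 4 read 9.01 to 9.13. On Fdps 1423418_at, C57Bl/6 replicate 1 read 7.16 (others 7.67 to 7.76) and C3H replicate 4 read 6.76 (others 7.44 to 7.62). B6C3F1 replicate 5 read 8.52 on Cyp51 1450646_at (others 7.95 to 8.04). The remaining 3 were on dim probe sets: C57Bl/6 replicate 4 at 5.65 on Hmgcs1 1441536_at (others 4.16 to 4.38), and C57Bl/6 replicate 1 at 5.55 (others 4.25 to 4.50) and C3H replicate 4 at 4.95 (others 4.48 to 4.59) on Cyp51 1422534_at. C3H replicate 4 also had the brightest poly-A controls (10.48). C3H minus C57Bl/6 of Fdps was -0.24 over all arrays, -0.05 when the fit held the signal of the poly-A RNAs as a covariate and -0.09 without C3H replicate 4. None of the 4 probe sets of Hsd17b7 held such an array.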

How the results depend on the processing

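With each gene counted on the 1 probe set that stands for it, the number of members that passed between the parents was 1 in each of 30 alternatives. This count leaves out the dimmer Hmgcs1 probe sets, which passed when every probe set was tested on its own. In the main fit this was Hsd17b7, beside 15.7% of all genes. The members were chosen with values of these arrays known, so nothing is read from this count. The parental difference of Hsd17b7 moved to -2.70 with an added constant of 64 and to -1.63 without probe sets ending in _x_at or _s_at, and was -3.07 to -2.84 with 1 array left out. The count of other pathway genes that passed between the parents (14) was 9 to 17 with 1 array left out, and 9 without C3H replicate 3. For B6C3F1 minus C57Bl/6 (2) it was 0 with median centring or no trend, 1 with every probe set, 4 with only the strains compared, 6 with array weights, and 0 to 4 with 1 array left out. For B6C3F1 minus C3H (7) it was 4 with the poly-A covariate and 4 to 11 with 1 array left out (4 without B6C3F1 replicate 4, 11 without C3H replicate 5). For B6C3F1 minus the midparent (1) it was 0 with median centring, no trend or the poly-A covariate, 2 with array weights, and 0 to 2 with 1 array left out. Cyb5r3 between the parents was -0.0054 ± 0.11 without probe sets ending in _x_at or _s_at, since another probe set then stands for it. It no longer passed there (limma, adjusted p = 0.983). For the pairs, 1 passed with median centring, where the median r was 0.25; with 1 array left out, 0 to 1 passed and the median r was -0.011 to 0.13, and with the mean of a gene's probe sets, added after seeing the data, it was -0.044. Except where stated, the cause was not tested. With the replicate number as a block, the counts of pathway genes were 14, 1, 9 and 1 in the order above; the numbers do not pair the mice. Leaving out arrays reduces the number that limits precision.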
